A study of Saccharomyces bayanus x Saccharomyces cerevisiae with 8 samples.

Results

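The nuclear pore complex genes were examined in OZY27, a yeast hybrid that carries the genomes of Saccharomyces cerevisiae and Saccharomyces bayanus, so that each gene studied has an allele from either species. The genes were chosen by systematic ORF name: 32 ORFs for nucleoporins, GLE1, GLE2, MLP1 and MLP2 were listed, and 24 of them were among the 4238 ortholog pairs of the table. All 24 had enough reads to be tested, as had 4197 genes in all. The other 8, NUP1 (YOR098C), NUP42 (YDR192C), NUP53 (YMR153W), NUP100 (YKL068W), NUP145 (YGL092W), NSP1 (YJL041W), NDC1 (YML031W) and SEH1 (YGL100W), were not analysed here. The table gives ORF names only, so the standard gene names and the roles stated here come from general knowledge of yeast and not from the deposited files.

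The S. cerevisiae parent is isogenic to the laboratory strain W303 and carries the auxotrophic markers his3, leu2, lys2, trp1 and ura3, and the S. bayanus parent derives from CBS 4001 and carries ade2, his3 and lys2. There was no treatment and no other genotype. The comparison is between the alleles within each of 2 cultures, called culture 1 and culture 2, which were grown at 25 °C in YPD, a rich glucose medium, and taken in log phase. Each culture gave 1 RNA library. Culture 1 was sequenced in 5 lanes (3 at UCB and 2 at UCR) and culture 2 in 3 lanes (2 at UCB and 1 at UCR), and lanes held 2350222 to 3159446 counted reads. Lanes are repeat runs of a library, so n = 2 throughout unless lanes are named.

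The nuclear pore complex is the channel in the nuclear envelope through which proteins and RNA pass between nucleus and cytoplasm. It is built from a membrane ring, an inner ring and outer rings of Y-shaped complexes, which hold nucleoporins rich in phenylalanine and glycine (FG) repeats in the central channel. Filaments on the cytoplasmic side take part in mRNA export, and a basket of long coiled-coil proteins extends into the nucleus. Its subunits come together in fixed proportions, and here each subunit can be made from either genome.

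Most nuclear pore genes had an allele ratio close to that of the typical gene. The allele ratio is on the log2 scale, with positive values where the S. bayanus allele had more reads, scaled to each genome's total and to the bases in which reads can be mapped, so that 0 is the typical gene. The alleles differed in 11 of 24 genes (45.8%; edgeR adjusted p from 0.00273 to 0.0380), against 53.5% of all tested genes. The S. bayanus allele was higher in 4, NUP84, NUP188, NUP192 and POM34, against a background of 26.6%. The S. cerevisiae allele was higher in 7, NUP60, NUP85, NUP170, POM152, GLE1, GLE2 and MLP2, against a background of 26.9%.

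These differences were small. The 11 ratios ran from 1.23-fold to 1.79-fold, 4 of them reached 1.5-fold (29.6% of all tested genes did so and passed the test), and 0 reached 2-fold (13.2% of all tested genes). The median size of the log2 ratio was 0.21 (1.16-fold) over the 24 genes and 0.37 (1.30-fold) over all tested genes, and 17 of the 24 lay below the latter. Standard errors were 0.08 to 0.14, against 0.07 to 0.82 over all tested genes. The median signed ratio was -0.11, and -0.08 and -0.12 in cultures 1 and 2. All 24 genes had more reads than the median tested gene, with 433 to 3686 reads per allele and culture. The median was 5850 reads over the 24 genes and 2673 over all tested genes, so the sizes above are compared at unlike depths.

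**Figure D1:**
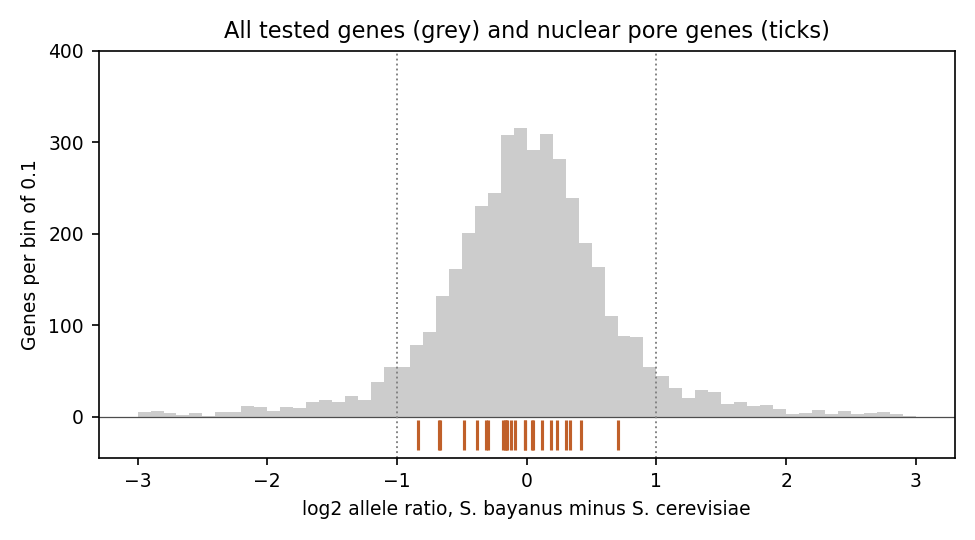
Log2 allele ratio (x axis) of the 4197 tested genes as a histogram in bins of 0.1 (y axis, genes per bin; the axis stops at 3 in either direction), with the 24 nuclear pore genes as ticks below it and dotted lines at a 2-fold ratio. All ticks lie between -0.84 and 0.70, inside the dotted lines.

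The division between the directions depended on scaling. When the alleles of a culture were given a common library size, which shifts the median tested gene by 0.11 toward S. bayanus, 10 nuclear pore genes differed, 6 of them with a higher S. bayanus allele and 4 with a higher S. cerevisiae allele. On that scale the calls of NUP60, NUP85 and POM152 were lost, NUP82 and NUP159 were called toward S. bayanus, and the median ratio was 0.01, against 0.11 over all tested genes. The authors' deposited table holds 11 calls among these genes, with a higher S. bayanus allele in 6 and a higher S. cerevisiae allele in 5. Between the authors' deposited table and edgeR, 9 calls were shared and 0 were opposite. NUP82 and NUP159 were called only in the authors' deposited table, and NUP60 and POM152 only by edgeR.

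**Figure D2:**
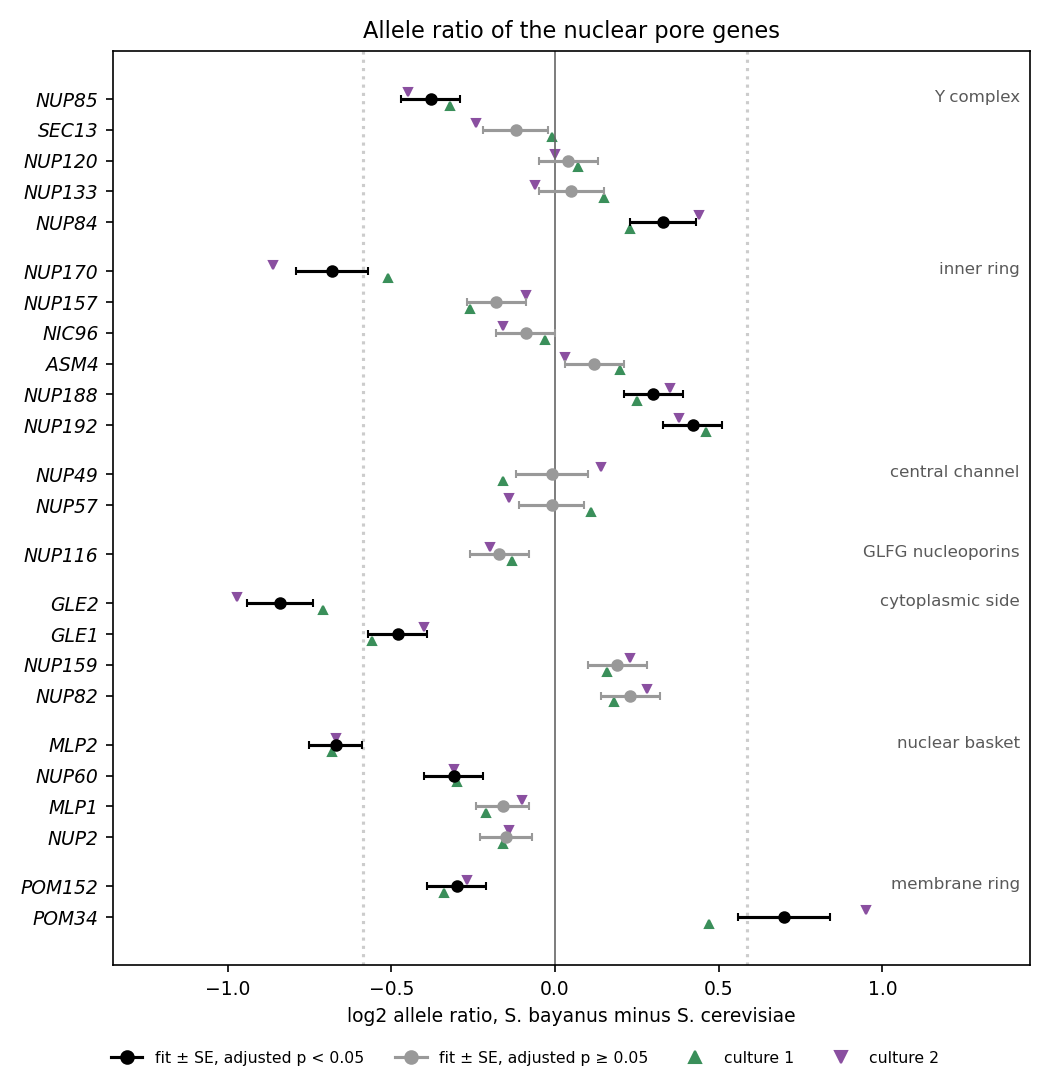
Log2 allele ratio (x axis) of the 24 nuclear pore genes, grouped by place in the pore. Circles with bars are the fitted ratio ± standard error, black where the adjusted p was under 0.05, triangles are the single cultures, and dotted lines mark 1.5-fold. GLE2, NUP170 and MLP2 lie beyond the line toward S. cerevisiae and POM34 beyond the line toward S. bayanus.

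The membrane ring, which anchors the pore in the nuclear envelope, had 2 of 2 genes past the test (background 53.5%), in opposite directions. POM34 (YLR018C, right arm of chromosome XII), a small membrane protein of this ring, had the largest ratio toward S. bayanus. Its S. bayanus allele had 1643 reads in culture 1 and 1103 in culture 2, and its S. cerevisiae allele 1067 and 489. In RPKM, computed over mappable bases and the reads of each genome, the S. bayanus allele stood at 272.5 ± 29.7 and the S. cerevisiae allele at 166.0 ± 19.7 (SD, n = 2), and the alleles did not overlap between cultures. The log2 ratio was 0.70 ± 0.14 (SE, a 1.63-fold difference, edgeR adjusted p = 0.0102), and it was above 0 in 8 of 8 lanes. The S. bayanus ortholog of POM34 is 8.37 percentage points richer in GC than the S. cerevisiae ortholog, more than in 95.8% of tested genes, and over all tested genes the Spearman correlation of GC difference with allele ratio was 0.249 (a description over genes of the same libraries). With the trend on GC difference removed, the ratio of POM34 was 0.46 and still passed the test (edgeR adjusted p = 0.00581).

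POM152 (YMR129W, right arm of chromosome XIII), the large glycoprotein of the same ring, had 2224 and 1218 S. bayanus reads against 2631 and 1311 S. cerevisiae reads in cultures 1 and 2. Its log2 ratio was -0.30 ± 0.09 (SE, edgeR adjusted p = 0.0335). All lanes lay between -0.40 and -0.20. The call was lost with 1 library size for both alleles, at -0.19, once the GC trend was removed, at -0.17, and in the UCR lanes alone, at -0.26. It was also lost with DESeq2 and with no block for the culture.

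On the cytoplasmic side, 2 of 4 genes differed (background 53.5%), both toward S. cerevisiae (background 26.9%). GLE2 (YER107C, right arm of chromosome V), a beta-propeller protein that binds NUP116 and takes part in mRNA export, had the largest ratio of the nuclear pore genes. Its S. bayanus allele had 1095 and 433 reads in cultures 1 and 2, and its S. cerevisiae allele 1698 and 767. This came to an RPKM of 138.0 ± 36.1 against 243.8 ± 31.4 (SD, n = 2), with no overlap between the alleles. The log2 ratio was -0.84 ± 0.10 (SE, a 1.79-fold difference, edgeR adjusted p = 0.00273), and lanes ran from -1.10 to -0.59.

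GLE1 (YDL207W, left arm of chromosome IV), the activator of the mRNA export helicase DBP5, had 1208 and 589 S. bayanus reads against 1683 and 699 S. cerevisiae reads. Its log2 ratio was -0.48 ± 0.09 (SE, edgeR adjusted p = 0.0102), at -0.56 in culture 1 and -0.40 in culture 2. NUP82 (YJL061W), the scaffold of the cytoplasmic filaments, and NUP159 (YIL115C), the docking site of DBP5, had ratios of the other sign, 0.23 and 0.19. Both did not pass the test (edgeR adjusted p = 0.0755 and 0.109). They were above 0 in 8 of 8 lanes, which are repeat runs of the same libraries and not separate support.

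The nuclear basket genes all had negative ratios, as had 15 of the 24 nuclear pore genes and 2103 of 4197 tested genes. The test was passed by 2 of the 4 basket genes (background 53.5%). MLP2 (YIL149C, left arm of chromosome IX), a long coiled-coil protein of the basket, had 2400 and 1325 S. bayanus reads against 3618 and 1900 S. cerevisiae reads in cultures 1 and 2. In RPKM its alleles stood at 64.4 ± 1.87 and 102.5 ± 2.33 (SD, n = 2). The log2 ratio of -0.67 ± 0.08 (SE) was a 1.60-fold difference (edgeR adjusted p = 0.00284). The cultures were close, at -0.68 and -0.67, and every lane lay between -0.81 and -0.49. NUP60 (YAR002W), which links the basket to the core, had a ratio of -0.31 (edgeR adjusted p = 0.0330). NUP2 (YLR335W), a mobile FG protein of the basket, and MLP1 (YKR095W) had ratios of -0.15 and -0.16 that did not pass (edgeR adjusted p = 0.174 and 0.173). Both were below 0 in all 8 lanes, which are repeat runs of the same libraries and not separate support. On 1 library size all 4 ratios were still negative, at -0.56, -0.19, -0.04 and -0.04 for MLP2, NUP60, NUP2 and MLP1, and the call of NUP60 was lost. With the GC trend taken out they were -0.58, -0.06, 0.05 and 0.00, and NUP60 again did not pass (edgeR adjusted p = 0.535).

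The inner ring, the scaffold around the central channel, had 3 of 6 genes past the test (background 53.5%), in both directions. NUP170 (YBL079W, left arm of chromosome II) had 1224 and 542 S. bayanus reads against 1639 and 879 S. cerevisiae reads in cultures 1 and 2. Its alleles stood at an RPKM of 35.0 ± 6.43 and 55.6 ± 0.438 (SD, n = 2). The log2 ratio was -0.68 ± 0.11 (SE, a 1.60-fold difference, edgeR adjusted p = 0.00653), below 0 in 8 of 8 lanes.

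NUP192 (YJL039C) and NUP188 (YML103C), the largest scaffold proteins of the ring, had higher S. bayanus alleles. NUP192 had 2606 and 1636 S. bayanus reads against 1792 and 1131 S. cerevisiae reads, and a log2 ratio of 0.42 ± 0.09 (SE, edgeR adjusted p = 0.0126). NUP188 had 1836 and 1206 against 1443 and 845 reads, and a ratio of 0.30 ± 0.09 (SE, edgeR adjusted p = 0.0380). With the GC trend taken out, NUP192 stood at 0.58 and NUP188, whose S. bayanus ortholog is 2.82 points richer in GC, at 0.19 without a call (edgeR adjusted p = 0.106). The linker proteins NIC96 (YFR002W) and ASM4 (YDL088C, also known as NUP59) had ratios of -0.09 and 0.12, with lanes on both sides of 0.

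The Y complex, the coat-like building block of the outer rings, had 2 of 5 genes past the test (background 53.5%), 1 in each direction. NUP84 (YDL116W) had 1608 and 844 S. bayanus reads against 1296 and 561 S. cerevisiae reads, and a log2 ratio of 0.33 ± 0.10 (SE, edgeR adjusted p = 0.0363). NUP85 (YJR042W) had 1739 and 735 against 2055 and 906 reads, and a ratio of -0.38 ± 0.09 (SE, edgeR adjusted p = 0.0199). With the GC trend taken out, NUP84 stood at 0.50, and NUP85 at -0.20 without a call (edgeR adjusted p = 0.0893). The call of NUP84 was lost in the UCR lanes alone, at 0.25, and without lane 1 or lane 3, at 0.30 in either case. Neither gene was called with DESeq2 or with no block for the culture. NUP120 (YKL057C) and NUP133 (YKR082W), which form the other arm and the stalk, had ratios of 0.04 and 0.05. SEC13 (YLR208W), a beta-propeller shared with the COPII vesicle coat, had a ratio of -0.12.

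The FG nucleoporins NUP49, NUP57 and NUP116 did not pass the test on their mean ratio. NUP49 (YGL172W) and NUP57 (YGR119C), which form the channel complex with NSP1, both had a ratio of -0.01 with standard errors of 0.11 and 0.10. NUP116 (YMR047C) had a ratio of -0.17 ± 0.09 (SE, edgeR adjusted p = 0.166).

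Both paralog pairs found complete in the table held 1 gene with a called ratio toward S. cerevisiae and 1 without a call. MLP2 lay below MLP1 by 0.47 in culture 1 and 0.57 in culture 2 on the log2 scale, and in 8 of 8 lanes. NUP170 at -0.68 lay below NUP157 (YER105C), its paralog in the inner ring, at -0.18, with a difference in ratio of -0.26 in culture 1 and -0.76 in culture 2, and it lay lower in 7 of 8 lanes. With 2 cultures the difference within a pair was not tested. The partners of NUP116 and ASM4, NUP100 and NUP53, were not analysed here. Mappable bases made up 90.6% to 97.7% of these 4 orthologs in both species; reads that paralogs could share are uncertain.

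Levels were compared as the RPKM of both alleles together, over mappable bases and all counted reads. SEC13 had the highest level, 684.3 ± 31.7 (SD, n = 2), 3.07-fold above the next gene, POM34 at 223.1 ± 7.79. Mappable bases made up 72.8% of SEC13, and over whole ortholog lengths SEC13 stood at 498.3 and POM34 at 208.5. POM34 was followed by NUP49 at 214.9 ± 26.6, NUP57 at 205.4 ± 47.8, NUP2 at 203.5 ± 38.1 and GLE2 at 188.9 ± 35.0, again over mappable bases. The lowest were NUP170 at 44.8 ± 3.77, NUP188 at 50.1 ± 3.97 and NUP133 at 56.1 ± 7.59. The median nuclear pore gene stood at 89.6 and the median tested gene at 92.3, with 11 genes above and 13 below the latter.

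Most neighbours in this order did not differ beyond their spread. The values of the cultures did not overlap in 4 of 23 neighbouring pairs, SEC13 over POM34, GLE2 over NIC96, NUP120 over NUP157 and NUP192 over NUP133. By place in the pore, the central channel pair had a median level of 210.1, the membrane ring 153.5, the nuclear basket 107.5, the cytoplasmic side 102.6, the Y complex 90.1 and the inner ring 68.1. The levels of the alleles followed each other across the 24 genes, with a Pearson correlation of 0.915 on the log2 scale and a Spearman correlation of 0.887. This is a description over genes read in the same libraries.

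**Figure D3:**
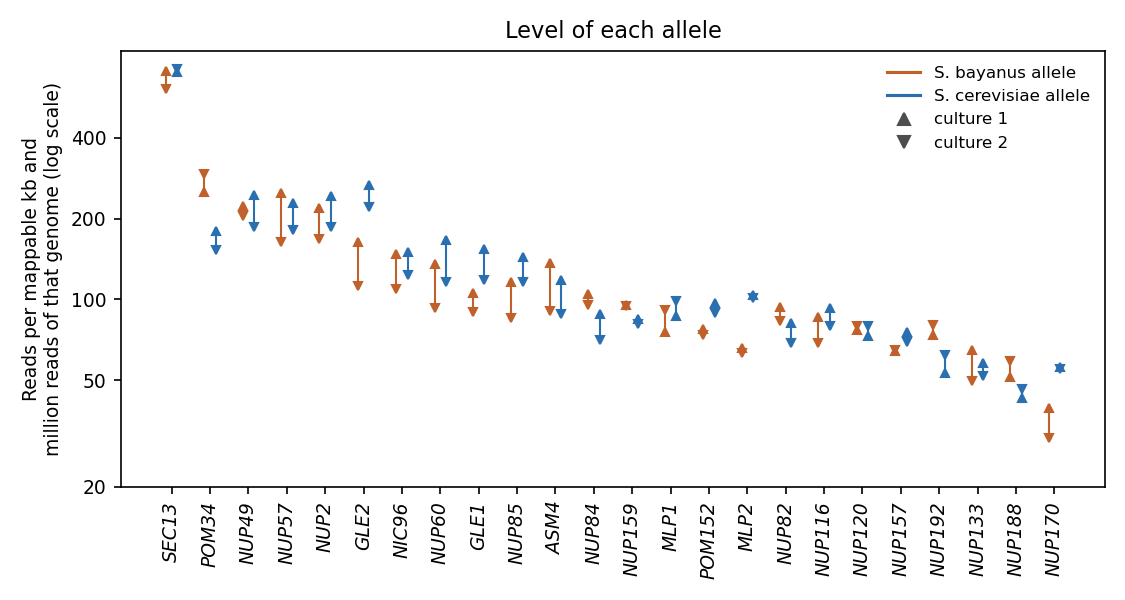
Level of the S. bayanus and the S. cerevisiae allele (y axis, log scale, RPKM over mappable bases and the reads of that genome) for each nuclear pore gene, ordered from left to right by the level of both alleles together. Triangles are the cultures, joined by a line. SEC13 stands above all others and NUP170 is lowest. The cultures do not overlap between alleles in POM34, GLE2, MLP2 and NUP170. The same holds for genes with smaller ratios, among them NUP84, NUP192 and NUP157, the last without a call.

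Between the cultures, 19 of 24 genes had a lower level in culture 2 and 5 a higher level, with a median log2 change of -0.20, against 64.0% of tested genes lower and a median of -0.12. The change ran from -0.54 in NUP60 to 0.23 in MLP1, both basket genes. With 1 library per culture this difference was not tested, and in bulk RNA fewer cells in a given state and less RNA per cell cannot be told apart.

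Cultures 1 and 2 differed in allele ratio in 5 of 24 genes (20.8%), against 17.9% of tested genes (edgeR, allele by culture interaction). The S. bayanus share was higher in culture 2 in NUP49 and POM34 (background 8.72%) and lower in NUP57, NUP170 and SEC13 (background 9.2%). The median size of the shift was 0.14, against 0.17 in all tested genes. Their p-values rest on the lane-to-lane spread of single libraries, and culture and library cannot be told apart. DESeq2 called 0 of the 24 genes, with 5 at an unadjusted p under 0.05.

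**Figure D4:**
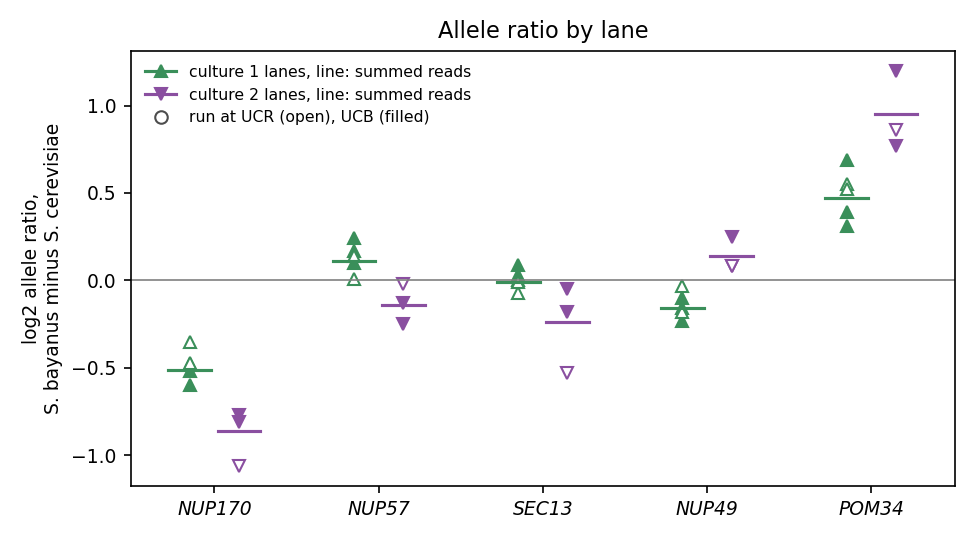
Log2 allele ratio (y axis) in each of 8 lanes for the 5 nuclear pore genes (x axis) whose ratio differed between the cultures. Upward triangles are culture 1, downward triangles culture 2, open symbols lanes run at UCR, and lines the ratio of the summed reads. Lanes of the cultures do not overlap in NUP170, NUP57, NUP49 and POM34 and overlap in SEC13.

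POM34 had log2 ratios of 0.31, 0.39, 0.69, 0.55 and 0.52 in lanes 1, 2, 5, 6 and 8 of culture 1, and of 0.77, 1.20 and 0.86 in lanes 3, 4 and 7 of culture 2. The lanes of culture 2 were all higher. The shift was 0.46 ± 0.11 (SE, edgeR adjusted p = 0.00307), with the S. bayanus allele at 1.17-fold and the S. cerevisiae allele at 0.845-fold of culture 1. With the GC trend removed in each lane, the shift was 0.12 and did not pass (edgeR adjusted p = 0.481).

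NUP170 had ratios of -0.52, -0.60, -0.48, -0.35 and -0.47 in culture 1 and of -0.77, -0.81 and -1.06 in culture 2, again without overlap. Its shift was -0.37 ± 0.10 (SE, edgeR adjusted p = 0.0101). The S. bayanus allele stood at 0.770-fold of culture 1 and the S. cerevisiae allele at 0.989-fold. The call was lost without lane 7, the lane of culture 2 run at UCR, where the shift was -0.26, and in the UCB lanes alone, where it was -0.25.

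The channel genes NUP49 and NUP57 shifted in opposite directions. NUP49 had ratios of -0.10, -0.16, -0.23, -0.03 and -0.18 in culture 1 and of 0.08, 0.25 and 0.08 in culture 2, a shift of 0.27 ± 0.08 (SE, edgeR adjusted p = 0.0188). NUP57 had 0.10, 0.17, 0.24, 0.14 and 0.01 in culture 1 and -0.13, -0.25 and -0.02 in culture 2, a shift of -0.27 ± 0.08 (SE, edgeR adjusted p = 0.0208). Lanes did not overlap in either gene, and the sign of the summed ratio changed between cultures in both. NUP49 lost its call without lane 4 and in the UCB lanes alone, with shifts of 0.26 and 0.32. NUP57 lost it without lane 2, 3, 4, 5 or 6, with shifts of -0.25 to -0.16, when genes needed 50 reads, at -0.23, and with the GC trend taken out, at -0.20.

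SEC13 had ratios of 0.00, 0.03, 0.09, -0.07 and -0.01 in culture 1 and of -0.18, -0.05 and -0.53 in culture 2, which overlap. Its shift was -0.25 ± 0.08 (SE, edgeR adjusted p = 0.0297). Lane 7 was the lowest, and without it the shift was -0.08. The call was also lost without lane 1, 2, 3, 5 or 8, with shifts of -0.24 to -0.21, when genes needed 50 reads, at -0.21, and in the UCB lanes alone, at -0.15. Over all tested genes, lanes of the cultures did not overlap in 22.2%, and in 6 of the 24 nuclear pore genes.

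The site at which lanes were run gave 0 calls among all tested genes (edgeR, allele by site interaction), with 23 at an unadjusted p under 0.05 and 0 of these among the nuclear pore genes. This fit had no term for the culture difference, so shifts between the cultures widened its spread. With that term added, and in a fit with lanes as units, 0 nuclear pore genes were called as well. An absence of calls does not show that the sites were alike. All 11 called genes had the same direction in UCB lanes alone and UCR lanes alone, and in each of the 8 lanes. Their calls were made from the sums of these same lanes, so this is not separate support. Lanes all had 1 sign in 15 of the 24 genes (62.5%), against 60.2% of tested genes.

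Nuclear pore genes had a smaller GC difference between the species than the typical gene, with a median of 0.77 percentage points against 1.75, and a range from -1.23 in NUP60 to 8.37 in POM34. With the trend of the ratio on GC difference removed, 7 of the 24 genes differed. The S. bayanus allele was higher in NUP84, NUP192 and POM34, and the S. cerevisiae allele in NUP170, GLE1, GLE2 and MLP2, and the median ratio was 0.02. The share was then 29.2%, against 54.9% of all tested genes.

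The proteins that work with the pore were read from lists of transport genes, of which 40 of 49 were in the table. Alleles differed in 26 of these 40 (65.0%, against 53.5% of all tested genes), 15 toward S. bayanus (background 26.6%) and 11 toward S. cerevisiae (background 26.9%). These shares are the background for each list that follows. The 40 genes had a median ratio of 0.07 and a median size of 0.39. Of the karyopherins, the carriers that bind cargo and FG repeats, 8 of 12 differed (background 53.5%), 5 with more S. bayanus and 3 with more S. cerevisiae transcript. The leading ones were PDR6 (YGL016W) at 0.71 (edgeR adjusted p = 0.00295), KAP114 (YGL241W) at 0.69 (edgeR adjusted p = 0.00315) and KAP104 (YBR017C) at 0.65 (edgeR adjusted p = 0.00857). With the GC trend taken out, 1 karyopherin differed toward S. cerevisiae.

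Of the genes of the Ran cycle, which gives transport its direction, 5 of 8 differed (background 53.5%), 3 with more S. bayanus and 2 with more S. cerevisiae transcript. GSP2 (YOR185C), a copy of the GTPase Ran, had a ratio of 1.96 (edgeR adjusted p = 0.000816), and its reads are uncertain because of its near-identical paralog GSP1, not analysed here. The Ran-binding proteins MOG1 (YJR074W) and YRB30 (YGL164C) stood at 1.14 and -0.82 (edgeR adjusted p = 0.00598 and 0.00389). MOG1, with a GC difference of 9.02 percentage points, had ratios of 0.77 and 1.53 in cultures 1 and 2, and 0.86 with the GC trend taken out. Of the mRNA export genes 9 of 13 differed (background 53.5%), 4 with more S. bayanus and 5 with more S. cerevisiae transcript. The mRNA-binding proteins HRB1 (YNL004W), NPL3 (YDR432W) and HRP1 (YOL123W) led at -1.17, -0.70 and -0.57 (edgeR adjusted p = 0.00140, 0.00330 and 0.00547).

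Of the genes for proteins that attach to the pore or help to build it, 4 of 7 differed (background 53.5%), 3 with more S. bayanus and 1 with more S. cerevisiae transcript. ULP1 (YPL020C), the SUMO protease bound to the basket, stood at -1.30 (edgeR adjusted p = 0.00296), with 318 and 129 S. bayanus reads. POM33 (YLL023C), a membrane protein of the pore, stood at 0.88 (edgeR adjusted p = 0.00725) and HEH1 (YML034W), a protein of the inner nuclear membrane, at 0.56 (edgeR adjusted p = 0.0127). POM33, with a GC difference of 9.77 percentage points, had ratios of 0.59 and 1.18 in cultures 1 and 2, and 0.57 with the GC trend taken out. In these lists 4 of 40 genes reached 2-fold, GSP2, MOG1, HRB1 and ULP1 (13.2% of all tested genes did), and with the GC trend taken out MOG1 did not. Whether the lists differ from the nuclear pore genes was not tested.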

How the data were processed

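The deposited values are raw read counts for each ORF, in separate columns for every lane and allele, made by the authors. Bowtie was used, per the submitters' processing notes; its version, the annotation, the builds, strand use and the handling of reads that match either genome were "not given in the sources used here", so overlapping ORFs and close paralogs are uncertain. The deposited natural log ratios, p-values per culture and a call score of -1, 0 or 1 were made by the authors and used only for comparison. Another 4 deposited columns of per-culture sums were not used.

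Lane counts were summed per culture and allele. The main test was edgeR 4.0.16 (R 4.3.3), quasi-likelihood, on these 4 columns with the culture as a block, because the alleles share each library. TMM factors and log mappable length entered as offsets. Genes needed 10 reads over both alleles in each culture; 41 did not have them. P-values were adjusted over all 4197 genes (Benjamini-Hochberg) and called under 0.05. The culture test used the 16 lane columns with the lane as a block. Ratios per lane had 0.5 reads added. The GC trend was a lowess with a span of 0.3. The fits were tested on simulated data. For the culture and site tests these data held no variation between libraries, so they cannot show calls that arise from it. DESeq2 1.42.0 was an alternative. The genes, lists and tests were chosen with earlier results of these data known. By the rule for named genes, every gene found is accounted for, with full values for called ratios of at least 1.5-fold and for genes that differ between cultures, paralogs are set side by side, and at most 3 called genes per transport list are named, by size. Reads of the other called genes were added afterwards. P-values of the allele test rest on 2 cultures.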

Additional observations from a re-analysis of the deposited data

Results flagged for a closer look

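The allele ratio of 5 of the 24 nuclear pore genes differed between the cultures by the interaction test, against 17.9% of all tested genes. This test rests on the lane-to-lane spread of single libraries, and DESeq2 called 0 of the 24. The shift in log2 ratio, culture 2 minus culture 1, was 0.46 in POM34, 0.27 in NUP49, -0.25 in SEC13, -0.27 in NUP57 and -0.37 in NUP170. The GC content of the orthologs differs by 8.37 percentage points in POM34 and 5.07 in SEC13, and with the GC trend taken out of each lane their shifts were 0.12 and -0.30. Those of NUP49, NUP57 and NUP170 were then 0.30, -0.20 and -0.30. Among the 5 lanes of culture 1, no lane stood apart from the others in the ratio or level of any of the 24 genes by Dixon's criterion.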

How the results depend on the processing

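The ratios of GLE2, MLP2, NUP170 and POM34 passed the test under all 19 alternatives that give a test, and those of GLE1 and NUP192 under 18. NUP84, NUP188, NUP60 and POM152 were lost in 5 each and NUP85 in 4. All of these were lost with DESeq2 and with no replicate block. No called ratio changed sign. With each culture left out, ratios have no test.

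The 11 calls became 6 with DESeq2 (2 toward S. bayanus, 4 toward S. cerevisiae), 18 with lanes as units (7 and 11), 7 after GC correction (3 and 4), and 4 with no replicate block (1 and 3); the replicate block rests on both alleles being read in 1 library. Toward S. bayanus there were 2 in the UCR lanes alone and 2 to 4 with a lane left out, the lowest without lane 1, where NUP84 and NUP188 were lost. Toward S. cerevisiae there were 4 with 1 library size.

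The 5 culture calls became 0 with DESeq2, 3 after GC correction, 2 in the UCB lanes alone, 3 with at least 50 reads, and 3 to 4 with a lane left out. Higher in culture 2 were 0, 1, 1, 2 and 1 to 2 of them in that order, and lower 0, 2, 1, 1 and 1 to 2.

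Among the transport lists, calls toward S. cerevisiae went from 11 to 7 after GC correction. Those of the karyopherins became 1, those of the Ran cycle 1 both with 1 library size and after GC correction, and the 4 mRNA export calls toward S. bayanus became 2. The median level of 89.6 became 85.5 over whole ortholog lengths and 93.5 in culture 1. Causes were not tested. The 24 nuclear pore genes had at least 433 reads per allele and culture; alleles in the transport lists had as few as 92.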
